A study of Mus musculus with 12 samples.

Results

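Genes for making fatty acids, triglycerides and membrane phospholipids were followed in the ventricular muscle of mice. The set holds 39 genes, chosen by symbol from a list, among the 54949 features of the deposited count table. It has 7 genes of de novo fatty acid synthesis, 11 of elongation and desaturation and 21 of glycerolipid and phospholipid synthesis, the enzymes of cardiolipin included. RNA of ventricles, with the atria removed, was sequenced in bulk in 12 libraries of male wild-type C57BL/6N mice. The study compared control mice with mice made to model HFpEF, heart failure in which filling is impaired but the ejection fraction is preserved. The model mice ate a high-fat diet and drank water with 0.5 g/L of L-NAME, which blocks nitric oxide synthesis, for 5 weeks from the age of 8 weeks. Control mice received normal diet and water.

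For each of the 12 samples, title and library name disagree on the condition. Those titled HFpEF, with the fat diet and L-NAME as their treatment, have libraries named con (replicates 1 to 6), and those titled CON have libraries named HF. The groups are called here by library name, con-named and HF-named, with 6 libraries each, and every fold change is HF-named over con-named. Which group was treated cannot be told from these sources, so no direction below can be read as an effect of the model. The design text speaks of 5 samples per group for bulk sequencing, while the labels hold 6. Nothing in the labels states that the libraries come from different mice, and p-values then measure only a spread between samples that may be technical. Totals ran from 14443186 to 22048689 counts per library, and 3 counts, taken as the limit that a count of 0 allows, corresponded to 0.142 to 0.217 CPM (counts scaled to a common library size). The limit covers counting error only. Transcripts of the mitochondrial genome took 21.0% to 24.0% of the counts in con-named and 23.9% to 27.2% in HF-named libraries.

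De novo synthesis starts in the cytosol, where Acly splits citrate into acetyl-CoA, Acaca and Acacb carboxylate it to malonyl-CoA, and Fasn builds palmitate with NADPH that enzymes such as Me1 supply. The palmitate is then lengthened by Elovl enzymes and given double bonds by Scd and Fads enzymes. Glycerolipid synthesis attaches acyl chains to glycerol-3-phosphate (Gpam, then Agpat enzymes) and leads to phosphatidic acid. From this, lipins make diacylglycerol for triglyceride, phosphatidylcholine and phosphatidylethanolamine. Cds enzymes lead from phosphatidic acid into a second branch, under which cardiolipin is listed here. The heart takes most of its fatty acid from the blood and burns it, and malonyl-CoA is known there chiefly as the signal that restrains the entry of fatty acids into mitochondria.

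Of the 39 genes, 38 had enough counts to be tested. In HF-named libraries 7 were higher (18.4% of those tested) and 1 was lower (2.63%) at an adjusted p under 0.05 in edgeR's quasi-likelihood test, adjusted over all genes. Over all 15114 genes tested the same test called 13.3% of the genes, 8.28% higher and 5.05% lower. The 38 log2 fold changes had a median of 0.03, with 20 above and 18 below 0, beside a median of -0.01 over all genes tested. The genes that rose were Me1 and Acacb of de novo synthesis, Fads3 among the desaturases, and Gpam, Agpat3, Pcyt1a and Lpcat3 among the glycerolipid and phospholipid enzymes. Acly was the gene that fell. In bulk tissue, fewer cells of a type and less RNA per cell cannot be told apart. When counts were scaled by library totals in place of TMM, 5 members were higher and 5 lower, all genes shifted by a median of -0.13 (log2), and 3.2% of all genes were higher and 17.1% lower.

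**Figure D1:**
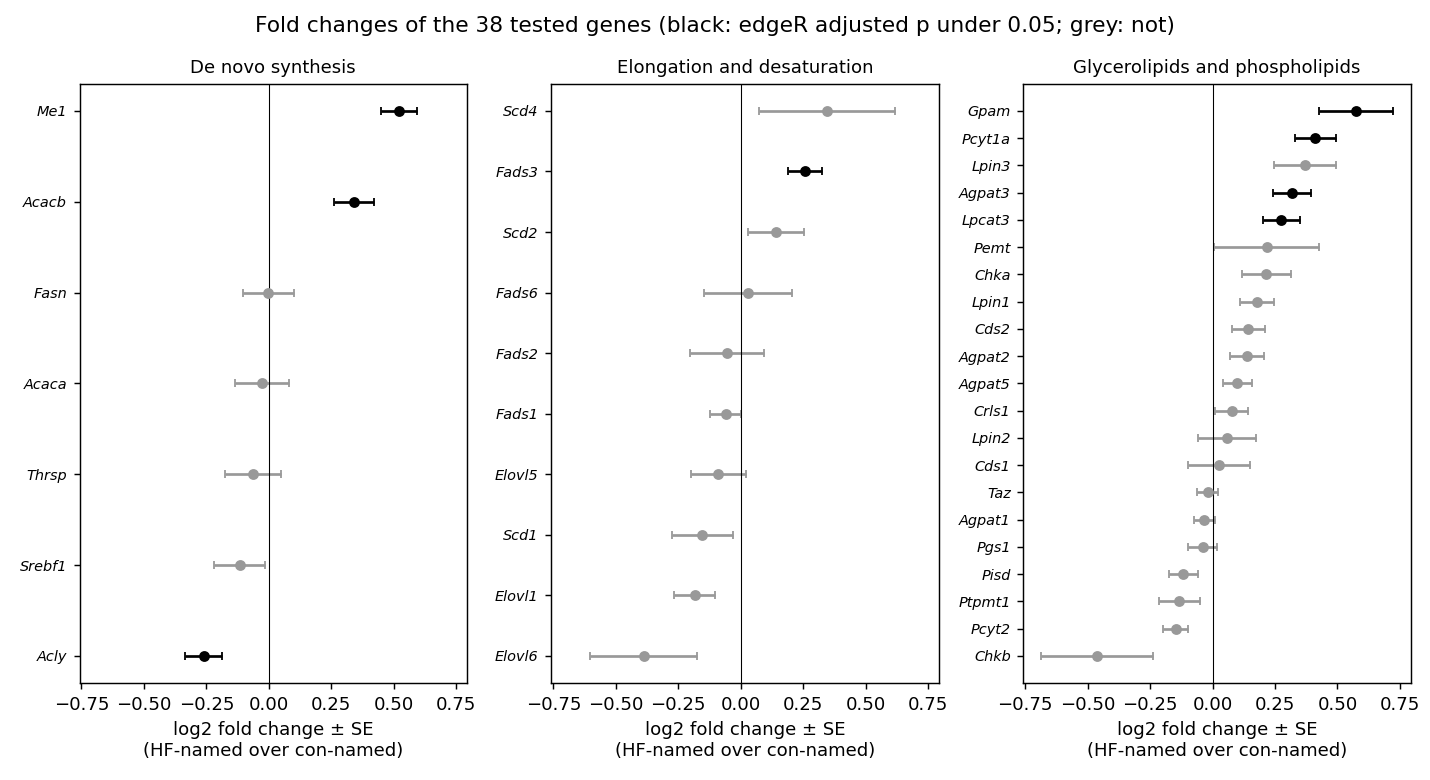
Log2 fold change (HF-named over con-named, x axis) with its standard error for the 38 tested genes, in 3 panels by role; black points passed edgeR's test and grey points did not. The 7 black points right of 0 lie between 0.26 and 0.57, and Acly lies at -0.26.

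The level of the de novo enzymes was uneven. Levels between genes are compared in the deposited FPKM, which are scaled by gene length and library total. Acacb, the carboxylase on the mitochondrial outer membrane, was the most abundant of the 7 with a mean of 53.8 FPKM over the 12 libraries, and Me1, the cytosolic malic enzyme, followed with 39.1. Acaca, the cytosolic carboxylase that feeds lipogenesis, stood at 0.521 FPKM and the synthase Fasn at 2.23. Thrsp, a lipogenesis-related protein, had 8.16 FPKM, Acly 7.42 and the transcription factor Srebf1 5.27. Summed over the 7 genes, the level was 109 ± 6.08 FPKM in con-named and 124 ± 3.87 in HF-named libraries (mean ± SD, n = 6), with Acacb at 46.2% of the sum.

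**Figure D2:**
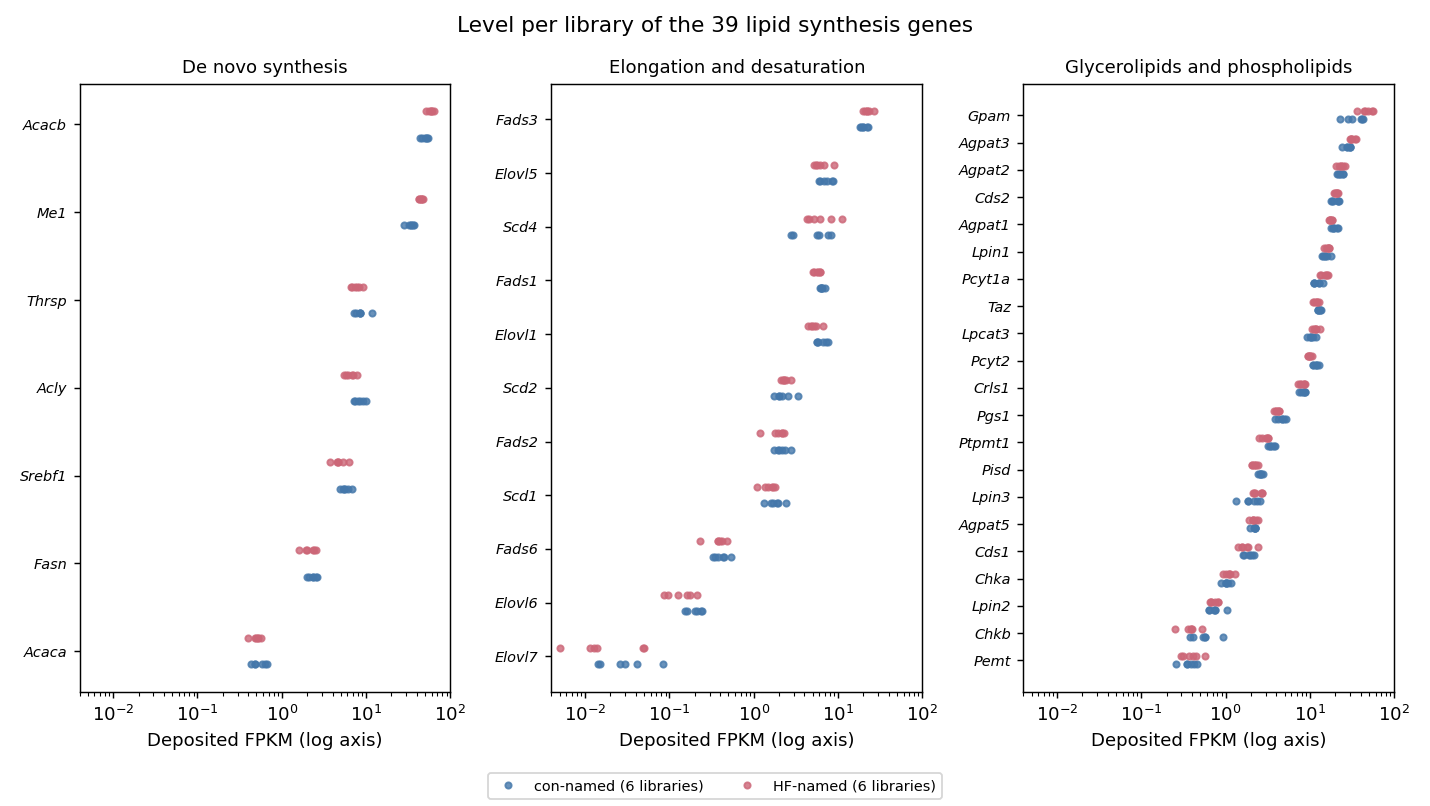
Deposited FPKM (log axis) of each of the 39 genes in each library, con-named in blue and HF-named in red, in 3 panels by role and ordered by mean level; a value of 0 is drawn at the left edge of the points (Elovl7, 1 library). Acacb (53.8 FPKM on average), Fads3 (21.3) and Gpam (40.7) head their panels.

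Me1 separated the groups completely. Its CPM had a lowest value of 100.1, a median of 125 and a highest of 142 in con-named libraries, against 165, 176 and 193 in HF-named libraries. All 6 HF-named libraries lay above all 6 con-named ones, the only such gene among the 38, where 3.41% of all genes tested showed this order. No member had all HF-named libraries below all con-named ones, which 1.95% of all genes showed. Its log2 fold change was 0.52 ± 0.07 (SE), or 1.43-fold (edgeR adjusted p = 0.000668). The call stood in all 20 alternative settings, each left-out library included.

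Acacb, whose malonyl-CoA acts at the mitochondrial entry step, had 385, 472 and 509 CPM (lowest, median and highest) in con-named and 488, 597 and 683 in HF-named libraries. Of the HF-named libraries 5 lay above all con-named ones, and replicate 3 lay inside their range. The log2 fold change was 0.34 ± 0.08 (edgeR adjusted p = 0.0120).

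Acly, the citrate-cleaving enzyme, moved the other way from Acacb and Me1. It had 38.2, 41.5 and 48.3 CPM in con-named and 31.5, 35.2 and 40.5 in HF-named libraries. Of the HF-named libraries 4 lay below all con-named ones, and replicates 3 and 6 overlapped with them. The log2 fold change was -0.26 ± 0.07 (edgeR adjusted p = 0.0298). The call was lost when any of 5 libraries was left out, with an adjusted p of 0.0604 without con-named replicate 2, 0.0608 without con-named 3, 0.0699 without HF-named 2, 0.0627 without HF-named 4 and 0.0692 without HF-named 5.

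The other de novo genes did not pass the test. Fasn had a log2 fold change of -0.00 ± 0.10, Acaca of -0.03 ± 0.11, Thrsp of -0.06 ± 0.11 and Srebf1 of -0.12 ± 0.10. Fasn ran from 21.7 to 27.2 CPM in con-named and from 17.3 to 29.3 in HF-named libraries, so the HF-named range enclosed the other. The sign of the fold change of Acaca, Fasn and Thrsp changed when certain single libraries were left out.

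Among the elongation and desaturation genes, Fads3, which desaturates the sphingoid bases of ceramides, was the most abundant with 21.3 FPKM and the one that passed the test of 10 tested. Its CPM was 54.3, 64.1 and 72.1 (lowest, median, highest) in con-named and 67.3, 75.9 and 86.4 in HF-named libraries. Of the HF-named libraries 5 lay above all con-named ones, and replicate 2 lay within them. The log2 fold change was 0.26 ± 0.07 (edgeR adjusted p = 0.0212). The adjusted p was 0.0577 without con-named replicate 5, and 0.16 with a log2 fold change of 0.15 when library totals set the scale.

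The neighbouring desaturases of polyunsaturated fatty acids did not pass. Fads1 had 6.02 FPKM and a log2 fold change of -0.06 ± 0.06, and Fads2 had 2.04 FPKM and -0.05 ± 0.15. The deposited FPKM imply 1508 nt for Fads2, 3456 nt for Fads1 and 3269 nt for Fads3. Their exons in GENCODE M21 add up to 3295, 4812 and 3792 nt, and with those lengths their levels would be lower. Fads6 stood at 0.396 FPKM with 0.03 ± 0.18, and its sign changed under library totals. The stearoyl-CoA desaturases, which put the first double bond into saturated chains, differed in level. Scd4, the form known from mouse heart, had 6.07 FPKM, Scd2 had 2.32 and Scd1 had 1.66. Scd4 was also the most spread, from 10.1 to 30.5 CPM in con-named and from 17.1 to 41.1 in HF-named libraries, and its log2 fold change of 0.34 ± 0.27 had an adjusted p of 0.437. Scd2 (0.14 ± 0.11) and Scd1 (-0.15 ± 0.12) did not pass either.

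None of the 3 elongases tested passed, and their libraries overlapped between the groups. Elovl5, which lengthens polyunsaturated chains, had 6.80 FPKM and a log2 fold change of -0.09 ± 0.11. Elovl1, which makes very long saturated chains, had 5.79 FPKM and -0.18 ± 0.08, with an adjusted p of 0.151 that became 0.0443 without HF-named replicate 3. Elovl6, which lengthens palmitate, was rare at 0.172 FPKM, with 8 to 27 counts per library, and had -0.39 ± 0.21. Elovl7, with 0 to 5 counts per library and 23 in all, was the member left untested. Summed over the 11 genes, the level was 52.7 ± 3.91 FPKM in con-named and 52.5 ± 7.30 in HF-named libraries (mean ± SD, n = 6).

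The glycerolipid and phospholipid genes held 4 of the 7 rises and no fall among 21 tested. Gpam, the mitochondrial acyltransferase that starts glycerolipid synthesis, was the most abundant in the deposited values at 40.7 FPKM, followed by Agpat3 at 30.0. The deposited FPKM of Gpam imply a length of 3832 nt, where its exons in GENCODE M21 add up to 6664 nt. With the longer length its level would be lower, so its rank above Agpat3 is not certain. The gene Gpam lies at chr19:55067268-55127238 on the minus strand of mm10 and Pcyt1a at chr16:32430921-32475070 on the plus strand. The 250 bases before the start of these transcripts are shown because they are the glycerolipid and phospholipid genes of largest rise, with 1 motif match in each in capitals (a GC box in the Pcyt1a window is left in lower case). Both sequences are from RefSeq (GRCm38.p6), printed 5′ to 3′ on the strand of the gene.
Pcyt1a, chr16:32430671-32430920, plus strand: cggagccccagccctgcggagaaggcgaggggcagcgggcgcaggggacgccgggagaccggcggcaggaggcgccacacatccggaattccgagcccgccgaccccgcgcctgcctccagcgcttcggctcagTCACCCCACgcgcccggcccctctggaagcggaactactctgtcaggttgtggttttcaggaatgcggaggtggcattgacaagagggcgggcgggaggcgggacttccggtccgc
Gpam, chr19:55127239-55127488, minus strand: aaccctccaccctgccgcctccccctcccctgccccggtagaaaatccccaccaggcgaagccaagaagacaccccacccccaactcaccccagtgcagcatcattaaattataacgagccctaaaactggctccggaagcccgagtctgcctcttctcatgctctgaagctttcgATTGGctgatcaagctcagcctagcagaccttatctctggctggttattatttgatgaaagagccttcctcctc
In Pcyt1a the capitals mark TCACCCCAC, a match to TCACNCCAC, one form of the sterol regulatory element that SREBP proteins bind, 116 bases before the start. In Gpam they mark ATTGG, the CCAAT box read on the other strand, 74 bases before the start.

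A promoter window was found for 34 of the 39 genes. Where a gene had more than 1, the most upstream was used, and letters were searched on both strands. The shares given beside the members' counts cover every window of every gene, and a gene can have more than 1. TCACNCCAC was in 1 of the 34 windows, that of Pcyt1a, and in 1.05% of all 32851 windows of the same length. CCAAT was in 15 of the 34 (33.8% of all windows), the GC box GGGCGG in 18 (32.7%) and the E-box CACGTG in 3 (6.02%). Of the genes that rose, Acacb, Fads3, Gpam and Lpcat3 held CCAAT, and Me1, Fads3, Pcyt1a and Lpcat3 held GGGCGG. No motif was tested against the fold changes.

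Gpam had the largest fold change of the set. Its CPM was 79.8, 136 and 153 (lowest, median, highest) in con-named and 137, 190.2 and 227 in HF-named libraries. Of the HF-named libraries 5 lay above all con-named ones, and replicate 3 fell inside their range. The log2 fold change was 0.57 ± 0.15, or 1.49-fold (edgeR adjusted p = 0.0187).

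The next acylation, to phosphatidic acid, is done by Agpat enzymes, and among these Agpat3 passed. It had 173, 210.01 and 230.1 CPM in con-named and 228, 256 and 298 in HF-named libraries. All HF-named libraries except replicate 3 lay above all con-named ones. The log2 fold change was 0.32 ± 0.08 (edgeR adjusted p = 0.0124). Agpat2 (23.1 FPKM, log2 fold change 0.14 ± 0.07), Agpat1 (18.5 FPKM, -0.03 ± 0.04) and Agpat5 (2.17 FPKM, 0.10 ± 0.06) did not pass. Under library totals Agpat1 was called lower (-0.15, adjusted p = 0.0447).

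The lipins, which turn phosphatidic acid into diacylglycerol, all had positive fold changes, and none passed the test. Lpin1, the main form of muscle, had 15.8 FPKM and a log2 fold change of 0.18 ± 0.07 (adjusted p = 0.0912). Lpin3 had 2.22 FPKM and 0.37 ± 0.12 (adjusted p = 0.0567), and Lpin2 had 0.742 FPKM and 0.06 ± 0.12, with a negative sign under library totals and with an offset for gene length and GC content. Lpin3 was called with DESeq2, with that offset (0.44, adjusted p = 0.0253) and without con-named replicate 1 or 2.

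On the branch to phosphatidylcholine, Pcyt1a, the cytidylyl transferase that sets the pace of its synthesis, had 75.1, 85.4 and 103 CPM in con-named and 99.3, 121 and 131 in HF-named libraries. Of the HF-named libraries 4 lay above all con-named ones, and replicates 1 and 3 overlapped with con-named replicate 3. The log2 fold change was 0.41 ± 0.08, or 1.33-fold (edgeR adjusted p = 0.00521). Lpcat3, which puts polyunsaturated chains back into lysophosphatidylcholine, had 27.5, 32.996 and 38.5 CPM in con-named and 36.2, 39.3 and 45.5 in HF-named libraries. Here 3 HF-named libraries lay above all con-named ones, and con-named replicate 1 lay above the other 3. Its log2 fold change was 0.28 ± 0.07 (edgeR adjusted p = 0.0228). This call was lost without con-named replicate 5 (adjusted p = 0.0541), HF-named 4 (0.0570) or HF-named 5 (0.0542), and under library totals (0.0873).

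The remaining enzymes of choline and ethanolamine lipids did not pass. The choline kinase Chka had 1.06 FPKM and a log2 fold change of 0.22 ± 0.10, and its partner Chkb 0.477 FPKM and -0.46 ± 0.22. Pemt, which methylates phosphatidylethanolamine to phosphatidylcholine and is best known from liver, was low at 0.386 FPKM, with 0.22 ± 0.21. Pcyt2, the ethanolamine counterpart of Pcyt1a, had 10.8 FPKM. Its CPM ran from 46.7 to 51.8 in con-named and from 41.3 to 48.0 in HF-named libraries, with 5 HF-named libraries below all con-named ones. Its log2 fold change of -0.15 ± 0.05 missed the threshold (edgeR adjusted p = 0.0554). It passed when con-named replicate 2 or HF-named 6 was left out, with DESeq2, with a filter of 1 CPM in 6 libraries and under library totals (-0.26, adjusted p = 0.00435). Pisd, which makes phosphatidylethanolamine in mitochondria, had 2.40 FPKM and -0.12 ± 0.06, again with 5 HF-named libraries below all con-named ones, and was called lower under library totals (-0.23, adjusted p = 0.0188).

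Cardiolipin is the signature lipid of the inner mitochondrial membrane. Of the 6 genes listed here with it, the Cds enzymes included, none passed. Cds2 had 20.3 FPKM and a log2 fold change of 0.14 ± 0.07, and Cds1 1.83 FPKM and 0.03 ± 0.12. Pgs1, which makes phosphatidylglycerophosphate, had 4.34 FPKM and -0.04 ± 0.06, and its phosphatase Ptpmt1 had 3.23 FPKM and -0.13 ± 0.08. The synthase Crls1 had 8.16 FPKM and 0.08 ± 0.07. Tafazzin (Taz), which remodels the chains of finished cardiolipin, had 12.4 FPKM and -0.02 ± 0.04, with 64.5 to 70.0 CPM in con-named and 63.4 to 69.2 in HF-named libraries. Under library totals the sign of Cds1 and Crls1 changed, and Ptpmt1 was called lower (-0.25). Summed over all 21 glycerolipid and phospholipid genes, the level was 215 ± 13.1 FPKM in con-named and 231 ± 11.4 in HF-named libraries (mean ± SD, n = 6).

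**Figure D3:**
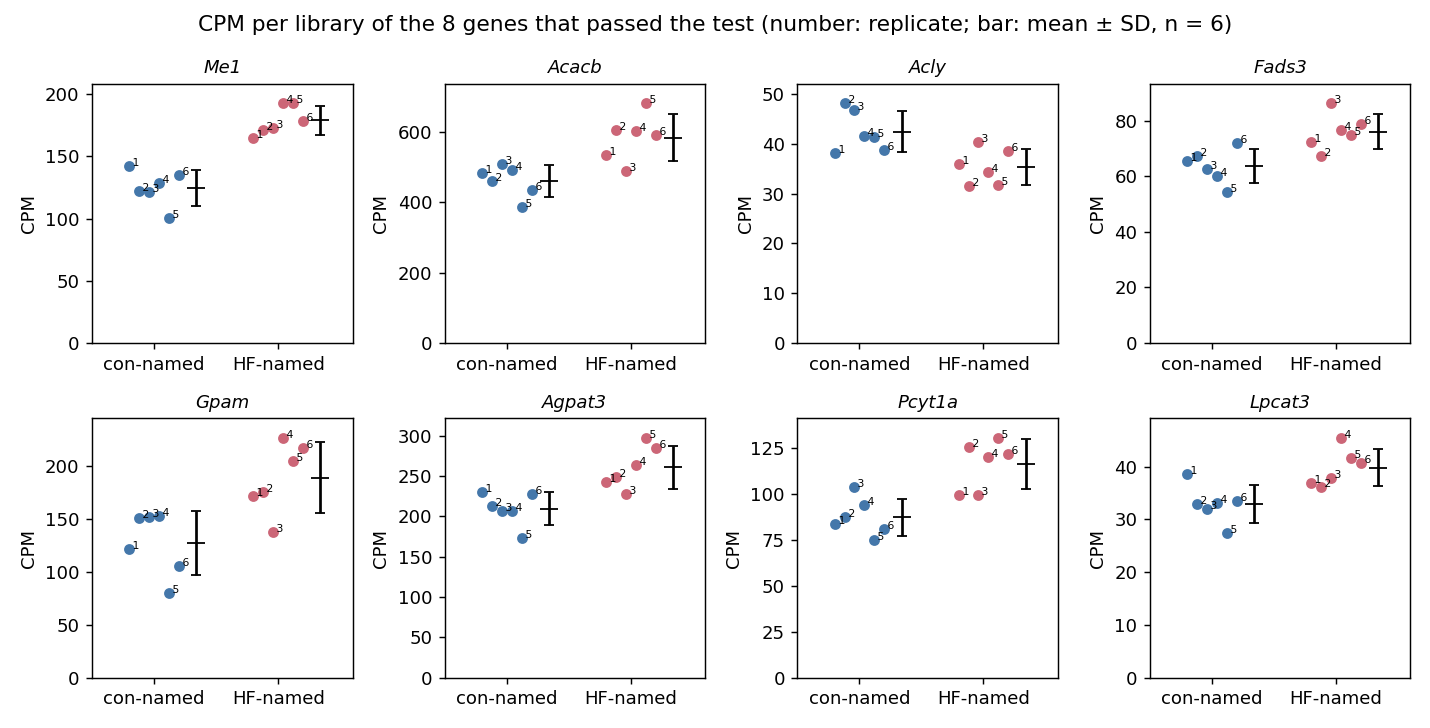
CPM per library (y axis from 0) of the 8 genes that passed edgeR's test; the small numbers are replicate numbers and the black bar is the mean ± SD of 6 libraries. Me1 has no overlap between the groups, and con-named replicate 5 is the lowest con-named library for all 7 genes that rose.

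The libraries of each group were not alike for the 7 genes that rose. Con-named replicate 5 was the lowest con-named library for 7 of the 7. HF-named replicate 5 was the highest of its group for 4 of the 7, and HF-named replicate 3 was the lowest for 4 (Acacb, Gpam, Agpat3 and Pcyt1a). Without con-named replicate 5, 5 members were higher and 1 lower (5.52% and 3.43% of all genes). Without HF-named replicate 3, 9 were higher and 2 lower (10.4% and 6.35% of all genes).

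Ratios between enzymes that share a step do not depend on how libraries are scaled, and 12 such pairs were compared by an exact permutation test over the 12 libraries, two-sided, adjusted over the pairs. The smallest p that 924 assignments of 6 and 6 libraries allow is 0.00216. The ratio of Pcyt2 to Pcyt1a, the ethanolamine against the choline branch, was 0.851, 0.946 and 1.17 in FPKM (lowest, median, highest) in con-named and 0.595, 0.645 and 0.747 in HF-named libraries. All 6 HF-named ratios lay below all con-named ones. The mean log2 ratio of counts fell by 0.56, from -0.82 ± 0.18 to -1.38 ± 0.13 (SD, n = 6; exact permutation p = 0.00216, adjusted 0.0130).

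The ratio of Agpat3 to Agpat1 went up. It was 1.16, 1.43 and 1.64 in con-named and 1.701, 1.79 and 2.07 in HF-named libraries, with 6 of 6 above all con-named ones. The mean log2 ratio of counts was 0.35 higher, at 2.24 ± 0.11 against 1.89 ± 0.17 (SD, n = 6; exact permutation p = 0.00216, adjusted 0.0130). With any 1 of the 12 libraries left out, both pairs still passed (adjusted exact p of 0.0130 to 0.0260).

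The other 10 pairs did not pass. Acacb to Acaca was 0.35 higher on the log2 scale (exact permutation p = 0.0195, adjusted 0.0779), Scd2 to Scd1 was 0.31 higher (0.0281, adjusted 0.0844) and Chkb to Chka was 0.62 lower (0.0390, adjusted 0.0935, all exact). Without HF-named replicate 3, Acacb to Acaca and Chkb to Chka passed as well and made 4 pairs. Without HF-named replicate 4, Scd2 to Scd1 passed. The pairs Scd4 to Scd1, Elovl5 to Elovl6, Elovl1 to Elovl6, Fads2 to Fads1, Lpin2 to Lpin1, Lpin3 to Lpin1 and Cds2 to Cds1 had adjusted exact p-values of 0.247 to 0.981.

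**Figure D4:**
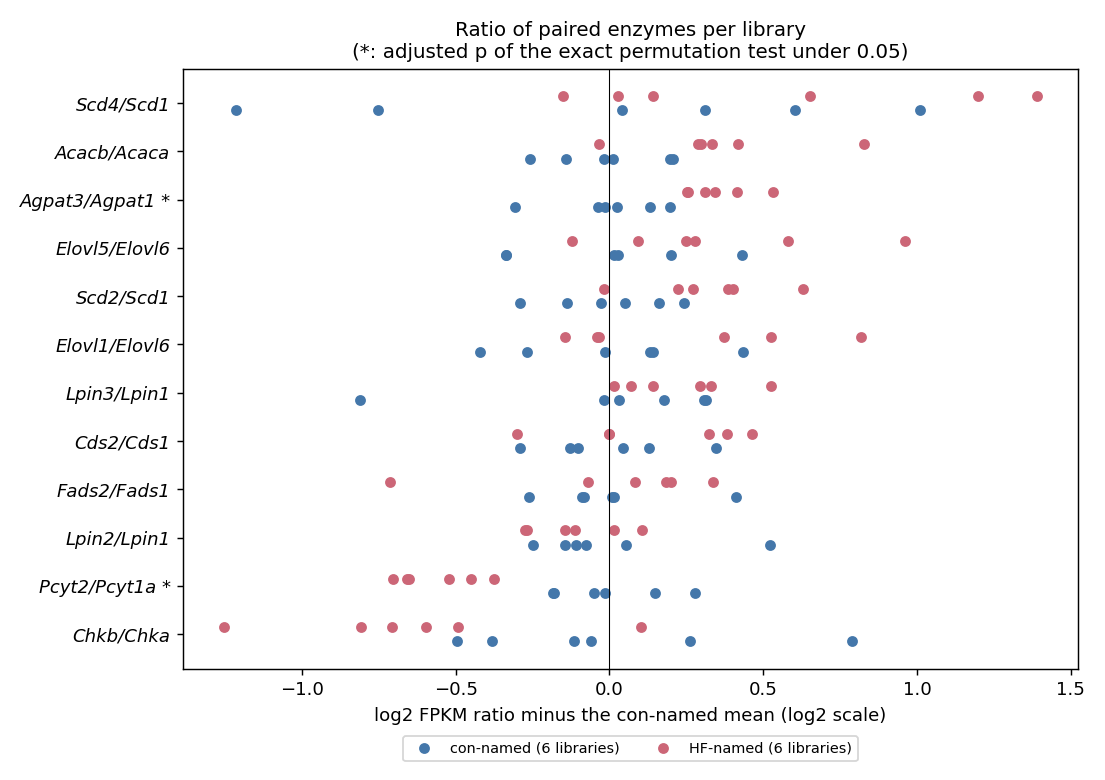
Log2 ratio of the FPKM of paired enzymes in each library, minus the con-named mean (x axis), with con-named libraries in blue and HF-named in red; an asterisk marks the 2 pairs that passed the exact permutation test. For Agpat3/Agpat1 all 6 red points lie right of all blue ones, and for Pcyt2/Pcyt1a all 6 lie left of them.

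Fold change moved with gene length across all 15114 genes tested (Spearman's rho 0.23 across genes, which are not independent). Of the shortest quartile of genes 3.18% were higher and 7.33% lower, and of the longest quartile 16.3% were higher and 2.65% lower. Among the genes that rose, Acacb (9632 nt), Agpat3 (7790 nt) and Pcyt1a (7412 nt) belonged to the longest quartile. Me1 (3848 nt), Gpam (3832 nt), Fads3 (3269 nt) and Lpcat3 (3268 nt) belonged to the second quartile, of which 5.11% were higher. These are the lengths implied by the deposited FPKM, and for Gpam the exons of GENCODE M21 add up to 6664 nt, within the longest quartile. Agpat1 (3001 nt) is shorter than Agpat3, and Pcyt2 (4346 nt) shorter than Pcyt1a.

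With an offset per library for length and GC content, added after the data were seen, all 8 calls stood. Agpat2 and Lpin3 became higher as well, so that 9 members were higher and 1 lower (7.13% and 3.29% of all genes). The offset used the lengths implied by the deposited FPKM, 3832 nt for Gpam, and its exon length of 6664 nt was not tried. With the same offset the ratio of Pcyt2 to Pcyt1a was 0.47 lower (log2, exact permutation adjusted p = 0.0260) and that of Agpat3 to Agpat1 was 0.26 higher (exact, adjusted p = 0.0433). Acacb to Acaca passed too, at 0.45 (exact, adjusted p = 0.0433).

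**Figure D5:**
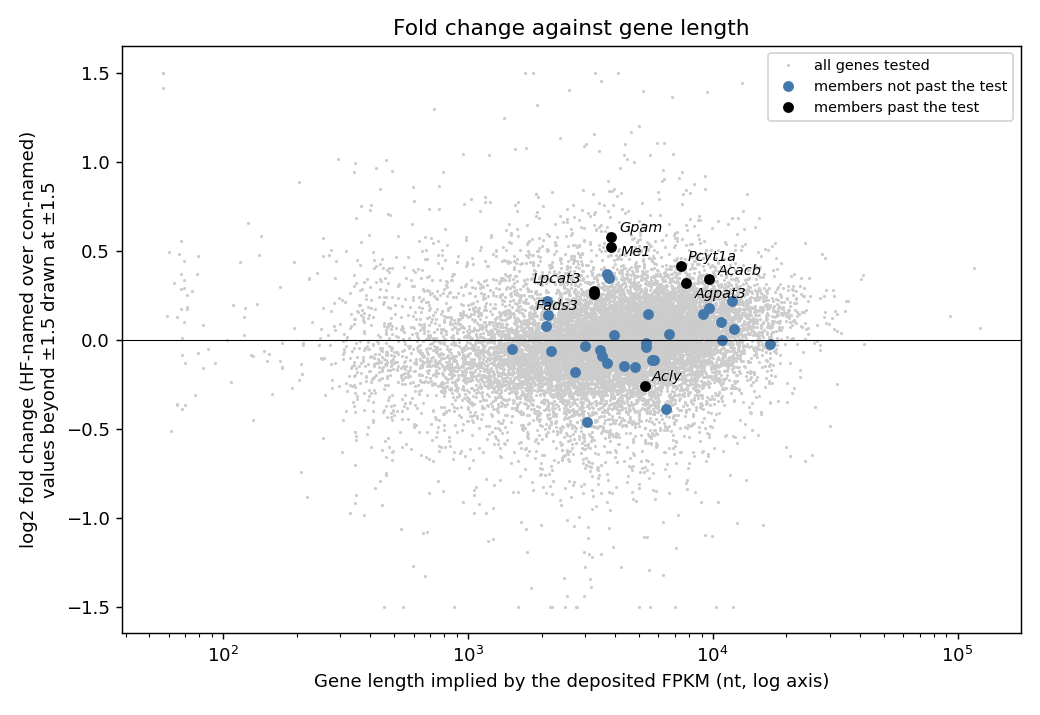
Log2 fold change (y axis, HF-named over con-named) against the gene length implied by the deposited FPKM (log axis) for all genes tested in grey, with the members in blue or, where they passed edgeR's test, in black. Acacb, Agpat3 and Pcyt1a lie between 7412 and 9632 nt and the other 4 genes that rose between 3268 and 3848 nt.

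Around the 39 genes, 72 further genes of the same pathways were listed, of which 65 were tested. In HF-named libraries 9 were higher (13.8%, beside 8.28% of all genes tested) and 3 lower (4.62%, beside 5.05%), and the median log2 fold change was 0.01. By role, 5 of 28 glycerolipid and phospholipid genes and 3 of 17 regulators were higher, and 1 regulator was lower. Among 12 genes listed as supply of de novo synthesis, 1 was higher (Idh1). The 1 that was lower, Mcat, belongs to mitochondrial fatty acid synthesis and not to the cytosolic route. Of 8 further elongation and desaturation genes 1 was lower.

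Of the further glycerolipid and phospholipid genes, 5 rose. Gk, the glycerol kinase that makes glycerol-3-phosphate, had 33.959, 35.8 and 41.2 CPM in con-named and 42.3, 46.4 and 49.1 in HF-named libraries, without overlap (log2 fold change 0.34 ± 0.06, edgeR adjusted p = 0.00209). Lpgat1, an acyltransferase of lysophospholipids, rose by 0.39 ± 0.06 (edgeR adjusted p = 0.00117), also without overlap between 80.8 to 100.5 and 111 to 130.5 CPM. Chpt1, which makes phosphatidylcholine from the product of Pcyt1a, rose by 0.25 ± 0.06 (adjusted p = 0.0171) and had 51.7 FPKM. Ptdss1, which makes phosphatidylserine from phosphatidylcholine, rose by 0.23 ± 0.05 (adjusted p = 0.00938). Gpat3, the acyltransferase of the endoplasmic reticulum that does the same step as Gpam, rose by 0.23 ± 0.07 (adjusted p = 0.0426) and is named after its values were seen. Under library totals Chpt1, Ptdss1 and Gpat3 were no longer called (0.13, 0.12 and 0.12).

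Among the regulators, Insig1, which holds SREBP precursors in the endoplasmic reticulum, had 14.2, 18.2 and 21.98 CPM in con-named and 23.3, 30.6 and 37.4 in HF-named libraries, without overlap (log2 fold change 0.71 ± 0.12, edgeR adjusted p = 0.00173). Mbtps2, a protease that releases mature SREBP, rose by 0.25 ± 0.06 (adjusted p = 0.0142), and Mlxipl, the carbohydrate-responsive factor ChREBP, by 0.24 ± 0.06 (adjusted p = 0.0188). Both calls were lost under library totals (0.13 and 0.12). Srebf2, the SREBP gene known for sterol synthesis, fell by 0.22 ± 0.07 (adjusted p = 0.0394).

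Idh1, a cytosolic source of NADPH like Me1, rose by 0.35 ± 0.10 (edgeR adjusted p = 0.0250), a call lost under library totals (0.23, adjusted p = 0.0899). Hsd17b12, the ketoacyl-CoA reductase of elongation, fell by 0.31 ± 0.09 (adjusted p = 0.0242), and Mcat, of mitochondrial fatty acid synthesis, by 0.17 ± 0.05 (adjusted p = 0.0468). Mcat is named after its values were seen. The 3 falls and 2 of the 9 rises depended on single libraries. Leaving out con-named replicate 5 or HF-named 2 or 4 ended the call of Hsd17b12 (adjusted p up to 0.0537), and con-named 5 or HF-named 4, 5 or 6 that of Idh1 (up to 0.0668). Gpat3 kept its call when con-named 1 or 3 or HF-named 1 or 3 was left out and lost it with each of the other 8 (up to 0.0927). Srebf2 kept it when con-named 1 or HF-named 3 or 6 was left out and lost it with each of the other 9 (up to 0.0836). Mcat kept it when con-named 2 or 5 or HF-named 3 was left out and lost it with each of the other 9 (up to 0.0970). With the length and GC offset the 3 falls, Mbtps2 and Chpt1 were no longer called.

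Adipocytes express many of these genes and fat can adhere to the heart, so adipocyte markers were read beside the members. All 8 were too low to be tested. Their summed level ran from 0.267 to 2.81 CPM in con-named and from 0.227 to 0.797 in HF-named libraries. The highest value in any library was 0.177 CPM for Adipoq, 0.0665 for Plin1, 0.190 for Cidec, 0.217 for Cfd, 0.0667 for Retn, 0.133 for Lep, 0.532 for Car3 and 2.52 for Pck1. None of the 8 was at 0 in all 12 libraries, and Lep was at 0 in 11. Of the brown fat markers, Ucp1 and Elovl3 were at 0 in 9 and 11 libraries. Cidea had 23.0 FPKM and was higher in HF-named libraries (log2 fold change 0.33 ± 0.07, edgeR adjusted p = 0.00845). Its CPM ran from 20.8 to 28.3 in con-named and from 27.3 to 32.8 in HF-named libraries, and the summed brown fat list (20.8 to 28.3 and 27.6 to 32.8 CPM) was almost all Cidea.

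Cardiomyocyte markers were abundant in the tissue labelled ventricular, with Myh6 at 4660 FPKM and the 6 markers together at 48093 to 54992 CPM in con-named and 50617 to 57232 in HF-named libraries. Of these 6, Ryr2 was higher and Tnnt2 and Tnni3 were lower. Markers of other cells moved between the groups. All 6 fibroblast, all 6 endothelial and all 6 macrophage markers had negative log2 fold changes (medians of -0.16, -0.29 and -0.25). All 4 tested mural cell markers had positive ones (median 0.27). Over all genes tested 8.28% were called higher and 5.05% lower, beside which the calls below stand. Of 6 fibroblast markers 2 were lower (Dcn, the most abundant at 45.7 FPKM, and Tcf21), with sums of 487 to 640 CPM in con-named and 400.4 to 489 in HF-named libraries. Of 6 endothelial markers 2 were lower (Kdr and Vwf), with sums of 695 to 1004 and 513 to 799.9 CPM, and the most abundant, Cdh5 (44.3 FPKM), had a log2 fold change of -0.34 ± 0.12 (adjusted p = 0.0634). Of 6 macrophage markers 2 were lower (Csf1r and Mrc1), with sums of 111 to 150.4 and 95.9 to 126 CPM, and the most abundant was C1qb at 26.1 FPKM. Of 4 tested mural cell markers none was called by edgeR, where 3 had an unadjusted p under 0.05, with sums of 1047 to 1175 and 1209.97 to 1379 CPM, led by Rgs5 at 147 FPKM. Genes called in these lists and not the most abundant are named after their values were seen. The part of these cell types, of the mitochondrial share and of gene length in the members' fold changes was not tested.

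The counting may have split or merged reads where genes overlap. Chkb shares 50.7% of its exon bases with Gm44502 and Pisd 20.1% with Gm20671 on the same strand, and Ptpmt1 shares 45% with Kbtbd4, Agpat5 18.9% with Gm35934, Lpcat3 10.2% with Emg1 and Pcyt1a 7.65% with Slc51a on the opposite strand. These are shares of bases and not of reads, so how far the values of these genes are affected is not known. In the authors' deposited table the same 8 members had an adjusted p under 0.05, 7 higher and 1 lower. Of its 33183 genes with a p-value, 5.11% did. Its groups are called HF and control and go with the library names, as Me1 has 3034 scaled counts in HF and 2114 in control. So the names in this table too stand against the titles, and they do not settle which group was treated.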

How the data were processed

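Poly-A-selected RNA of 12 ventricle libraries was sequenced, per the labels' protocols. The deposited table gives raw read counts per gene and FPKM made by the authors. Each deposited FPKM equals the count divided by the library's total and by 1 length per gene. A second deposited table holds the authors' comparison: mean scaled counts per group (a signal), log2 fold changes and p-values. Tools named in the submitters' processing notes are cutadapt 1.15, HISAT2 2.0.5 and HTSeq 0.9.1, with mm10, not tied to steps. For the annotation release and the strand setting the sources used here give nothing, and the protocol names no step that marks strand.

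Samples were grouped, and columns matched, by library name. From the counts, 15114 of 54949 features passed edgeR's filterByExpr. They were scaled by TMM and tested with edgeR 4.0.16 (glmQLFit and glmQLFTest, R 4.3.3), group only, two-sided, adjusted by Benjamini-Hochberg over all tested genes, threshold 0.05. This gives every adjusted p of a gene. CPM values divide counts by library totals after TMM. Ratios of paired enzymes used log2 counts plus 0.5. Alternatives were RLE or library totals, other filters, DESeq2 1.42.0, limma-voom (limma 3.58.1), a replicate block, each library left out and, added after seeing the data, a length and GC offset (splines with 5 degrees of freedom, 14904 genes found in GENCODE M21). The main edgeR fit with TMM was tested on simulated counts with known changes, and the other steps were not shown to be.

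The members and all gene lists were chosen with earlier results of these data known. Named with lowest, median and highest value are the members called and, in each of the 3 groups by role, the most abundant and the one of smallest p. Other members are named by level and fold change. Of the further pathway genes the 10 of smallest p are named, and of each marker list the most abundant gene and every adipocyte marker.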

Additional observations from a re-analysis of the deposited data

Results flagged for a closer look

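For each of the 38 tested genes and both groups, the highest and the lowest library were compared with the other 5 by Dixon's gap test. Of 76 groups, 5 had a library that stood apart at the 95% level, where chance alone marks about 1 in 20. Thrsp was at 25.5 CPM in con-named replicate 1, with the other con-named libraries at 15.3 to 18.4. Lpin1 was at 170.2 CPM in con-named replicate 3, with the others at 132 to 144. Chkb was at 2.83 CPM in con-named replicate 6, with the others at 1.13 to 1.76. In HF-named replicate 3, Scd2 was at 14.9 CPM, with the others of its group at 12.8 to 13.3, and Elovl5 was at 31.3 CPM, with the others at 20.2 to 23.9. None of these 5 genes passed edgeR's test with all libraries. Lpin1 was called higher without con-named replicate 3 (log2 fold change 0.23) and without HF-named replicate 3 (0.22).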

How the results depend on the processing

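The count of members higher stayed within 1.5 times of 7 in all 20 alternatives (5 to 9), while that of members lower moved. It was 5 under library totals (17.1% of all genes lower) and 2 with a filter of 1 CPM in 6 libraries (6.45%). It was 2 with DESeq2 (6.61%) and 0 with the replicate number as a block (2.53%). Leaving out 1 library gave 5 to 9 higher (5.52% to 10.4% of all genes) and 0 to 2 lower (3.3% to 6.35%). Calls over all genes were 3065 under library totals (483 higher, 2582 lower), 1131 with the block and 1355 to 2550 with 1 library left out. Further pathway genes were 3 higher and 13 lower under library totals (3.2% and 17.1% of all genes). Lower ones were 1 without a filter (1.8% of all genes lower), 0 with the block (2.53%) and 0 with the length and GC offset (3.29%). With 1 library left out, 0 to 6 were lower (3.3% to 6.35% of all genes) and 7 to 9 higher (5.52% to 10.4%). The ratios that passed were 2 to 4 with 1 library left out and 0 with the block. The smallest exact p that the block allows is 0.03125. Pcyt2 to Pcyt1a and Agpat3 to Agpat1 both reached it (exact sign-flip test, adjusted 0.1875). Adjusted over 12 pairs, this minimum falls under 0.05 only if most pairs reach it together, so the 0 says little about these ratios.

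Same-numbered libraries correlated from -0.195 to 0.115 in their deviations from the group means. By this measure con-named 6 and HF-named 6 matched each other best, and the libraries numbered 1, 2, 3 and 5 matched other numbers. Low correlations cannot exclude that the replicate numbers pair the samples. In the fit with the block 5 members were higher (Agpat3, Fads3, Gpam, Me1 and Pcyt1a), beside 4.95% of all genes. Acacb (edgeR adjusted p = 0.0547), Lpcat3 (0.0547) and Acly (0.0571) were not called in that fit.

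Signs changed for genes that were not called. Under library totals these were Fads6 (-0.096), Agpat5 (-0.015), Lpin2 (-0.064), Cds1 (-0.094) and Crls1 (-0.037). With the offset they were Fasn (0.0019), Thrsp (0.00041), Fads2 (0.054), Agpat1 (0.058) and Lpin2 (-0.0054). With 1 library left out, Acaca ranged from -0.087 to 0.024, Fasn from -0.056 to 0.079, Thrsp from -0.12 to 0.058, Fads2 from -0.12 to 0.040, Fads6 from -0.078 to 0.14, Cds1 from -0.092 to 0.080 and the ratio of Fads2 to Fads1 from -0.061 to 0.15. The cause of these changes was not tested. Of 998 alternative values of single genes, 885 kept sign and side of the threshold. Depth limits Elovl6, Elovl7, Chkb and Pemt, with at most 47 counts per library.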
